A study of Canis lupus familiaris with 29 samples.

Results

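Knockdown of DENND5A was set against wild type in monolayers of MDCKII cells, a line of dog kidney tubule epithelium, after 4 days on transwell inserts (2D-D4). The comparison takes 5 of the 29 libraries of the series. These are the DENND5A-KD libraries numbered 1 and 2, here called line 1 and line 2, and 3 WT libraries of the same day. A gene was tested where 2 or more of these 5 libraries reached 1 FPKM, which held for 10949 of the 24223 in the files. FPKM counts fragments per length of transcript and per depth of the library, and differences are of log2(FPKM + 1), so the change of a gene with low FPKM is understated.

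The cells of every group are MDCKII, and the labels name no allele or agent beyond the knockdown. Further groups served as side values. They are DENND5A-KD cells at seeding (D0) and at 7 days on inserts (2D-D7), 2 libraries each from the same line numbers, and AVL9-KD cells at 2D-D4, whose 2 libraries are numbered 1 and 4. WT cells at D0 (4 libraries) and at 11 days on inserts (2D-D11, 3 libraries) complete them. The labels do not say whether a knockdown number is a clone, a hairpin or a guide, and no control line that went through the same steps is used here. They also do not say whether replicates came from separate cultures, so the spread behind the p-values may be technical. That spread was estimated within 13 groups over all 29 libraries, including groups outside the comparison. It therefore need not equal the spread of the compared libraries or that between lines 1 and 2.

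DENND5A, also called RAB6IP1, belongs to the proteins with a DENN domain. Many of these load RAB GTPases, the switches of vesicle traffic, with GTP, and the human DENND5A protein binds RAB6 at the Golgi and acts on RAB39. In a confluent kidney epithelium, such traffic delivers transporters, brush-border enzymes and junction proteins to the apical and lateral membranes. MDCKII cells on inserts leave the cell cycle as they become crowded and then build a columnar, polarized layer. AVL9 is another protein of the DENN family.

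The 5 libraries held totals of 276017 to 334894 FPKM, with 10512 to 10835 genes at 1 FPKM or more. WT replicate 1 belongs to 5 wild-type libraries of the series that stand apart, and its depth, read from the steps between low values, was 0.486 of that of WT replicate 2, where lines 1 and 2 had 1.01 and 1.05 and WT replicate 3 had 0.9. TIMM13 was listed at 0 in those 5 libraries and at 30.9 to 397 FPKM in the others. The kidney epithelial markers summed to 1525 and 2048 FPKM in the DENND5A-KD libraries as lowest and highest, against 1919 to 2251 in WT, and each of the 8 markers found in the files reached 1 FPKM. Of 7 fibroblast markers in the files, FBLN1 alone reached 1 FPKM, and COL1A1, COL1A2, COL3A1, PDGFRB, DCN and LUM were at 0 in both DENND5A-KD libraries. FLT1 alone did so of 7 endothelial markers, which summed to 26.3 to 27.8 FPKM in the lines and 16 to 22.8 in WT, with PECAM1 and EMCN at 0 in both lines, and no leukocyte marker did, with PTPRC at 0 in all 5 libraries.

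The targeted gene was low in both lines. DENND5A (ENSCAFG00000007156) read 3.36 and 4.29 FPKM in lines 1 and 2, against 10.9, 10.8 and 10.2 FPKM in the WT libraries. Both lines lay below every WT library, at a log2 difference of -1.28 ± 0.13 (SE, adjusted p = 3.55e-06, limma on all 29 libraries, adjusted by Benjamini-Hochberg across the 10949 genes). The transcript was reduced and not lost, and line 1 had the lower level. AVL9 read 23.2 and 22.3 FPKM in the lines, against 22.1, 25.1 and 17.9 FPKM in WT, and was not called different (0.08 ± 0.15, adjusted p = 0.826). At D0 and 2D-D7 DENND5A read 2.02 and 1.88 FPKM and 4.38 and 4.04 FPKM in the lines, with 5.01, 6.89, 4.98 and 5.59 FPKM in the WT libraries at D0.

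At 2D-D4, 1299 of the 10949 genes differed (11.9%), 621 higher (5.67%) and 678 lower (6.19%) in DENND5A-KD, all by limma at an adjusted p under 0.05. Both lines lay above all WT libraries at 620 of the 621 and below them at 674 of the 678, which a call made on these same values favours. Over all genes tested, 16.5% lay above and 18.5% below in that way. Among the higher were 17 of 18 mitosis genes, and among the lower were 4 of 10 tubular transport genes and HNF4A. The count rested much on line 1: without it 403 genes passed, 305 higher and 98 lower, where the remaining line was assumed to vary like the other groups. Fitted with these 5 libraries alone, 615 genes passed, and 38 of 113 named genes lost the call. Without line 2 the count was 1221, with 416 higher and 805 lower. Without WT replicate 1 it was 909, with 550 higher and 359 lower, and without the 5 libraries that stand apart it was 1000, with 604 higher and 396 lower.

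Among genes with a symbol, several of the largest increases were in genes with little expression in WT. CLEC7A read 9.58 and 16.2 FPKM in lines 1 and 2, against 0.447, 2.33 and 1.15 FPKM in the WT libraries, a log2 difference of 2.63 ± 0.32 (SE, adjusted p = 1.41e-05). CLEC7A encodes dectin-1, a receptor for beta-glucans best known from myeloid cells. The myeloid markers CSF1R and ITGAM were at 0 in all 5 libraries. CD68 read 0 and 0.162 FPKM in lines 1 and 2, against 0.1205, 0.1785 and 0.1351 FPKM in WT. LYZ was at 0 except in WT replicate 2, with 0.0256 FPKM. The source of the CLEC7A transcript was not tested. FSTL1 read 34.9 and 33.7 FPKM in lines 1 and 2, against 3.61, 5.61 and 6.44 FPKM in the WT libraries, a log2 difference of 2.53 ± 0.29 (SE, adjusted p = 7.25e-06). FSTL1 is a secreted glycoprotein of the follistatin family, and its levels in the lines were close together. TP53I11 read 8.08 and 4.30 FPKM in lines 1 and 2, against 0.108, 0.71 and 0.205 FPKM in the WT libraries, and CDKN2B read 13.3 and 6.95 FPKM in lines 1 and 2, against 0, 2.75 and 1.27 FPKM in the WT libraries. CDKN2B, the inhibitor p15 of CDK4 and CDK6, was listed at 0 in WT replicate 1 and its difference was 2.38 ± 0.52 (adjusted p = 0.0043), while TP53I11, first described as a p53-inducible gene, differed by 2.40 ± 0.29 (adjusted p = 1.66e-05). FAM171B read 7.41 and 8.19 FPKM in lines 1 and 2, against 0.804, 1.07 and 0.918 FPKM in the WT libraries, a log2 difference of 2.19 ± 0.14 (SE, adjusted p = 6.93e-09), with nearly equal values in the lines.

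CYBRD1, a ferric reductase of cell membranes, read 15.8 and 21.5 FPKM in the lines, against 3.53, 2.91 and 3.64 FPKM in WT. FBLN1, the matrix protein fibulin-1, read 8.08 and 9.07 FPKM, against 1.22, 2.1 and 0.950 FPKM in WT. CCDC109B, a subunit that restrains the mitochondrial calcium uniporter, read 8.02 and 4.79 FPKM, against 0.318, 0.862 and 1.01 FPKM in WT. In each of these genes the lower line was above the highest WT library, and the differences were 2.16 ± 0.40, 2.01 ± 0.24 and 2.09 ± 0.23 (adjusted p = 0.000991, 1.47e-05 and 4.38e-06). The formin FHOD3, CMTM3 and the centromere gene CENPH differed by 1.70 ± 0.48, 2.11 ± 0.46 and 1.74 ± 0.22 (adjusted p = 0.0225, 0.00381 and 2.16e-05). Among these 11 genes some calls needed single libraries. Without line 1, CDKN2B, CMTM3 and FHOD3 did not pass (adjusted p from 0.0544 to 0.178), and without line 2, FHOD3 did not (adjusted p = 0.0776). FHOD3 did not pass without WT replicate 2 (adjusted p = 0.0858). CMTM3 and FHOD3 did not pass with a pseudocount of 0.1 (adjusted p from 0.0643 to 0.0656).

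Of 11 large decreases of genes with a symbol described here, 2 were in genes of the brush border or apical face of kidney tubules. PDZK1, a scaffold that holds transporters at the brush border of the proximal tubule, read 6.79 and 26.9 FPKM in lines 1 and 2, against 359.5, 140.4 and 222 FPKM in the WT libraries (-3.93 ± 0.90, adjusted p = 0.00582). TMEM27, the collectrin that helps amino acid transporters to the surface in mouse kidney, read 0.0355 and 0.200 FPKM, against 7.19, 4.13 and 5.71 FPKM in WT (-2.56 ± 0.27, adjusted p = 3.86e-06). These genes were lower in both lines than in any WT library, and line 1 was the lower line each time. Expression was measured in bulk, so fewer cells of a kind and less RNA per cell cannot be told apart.

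TSPAN5, a tetraspanin partner of the protease ADAM10, read 0.483 and 0.598 FPKM in the lines, against 13.8, 9.11 and 10.6 FPKM in WT (-2.96 ± 0.21, adjusted p = 1.74e-08). GABRA3, a subunit of the GABA receptor, read 1.32 and 1.75 FPKM, against 22.4, 16.5 and 15.4 FPKM in WT (-2.90 ± 0.58, adjusted p = 0.00211). SEPP1, the secreted selenium carrier selenoprotein P, read 19.7 and 20.5 FPKM, against 109.7, 109.5 and 103 FPKM in WT (-2.36 ± 0.60, adjusted p = 0.0113). The lines were close to each other in these 3 genes and far below WT. The matrix proteins VWA2 and EFEMP1, the tetraspanin TSPAN1, MFAP3L and ARHGAP24, which switches off RAC, differed by -2.88, -2.18, -2.56, -2.35 and -2.19 on the log2 scale. Without line 1, PDZK1, TSPAN1, SEPP1, ARHGAP24 and EFEMP1 did not pass (adjusted p from 0.0516 to 0.175), and without line 2, SEPP1 did not (adjusted p = 0.0518). EFEMP1 did not pass without WT replicate 1 (adjusted p = 0.0581). EFEMP1 did not pass with a pseudocount of 0.1 (adjusted p = 0.0519).

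**Figure D1:**
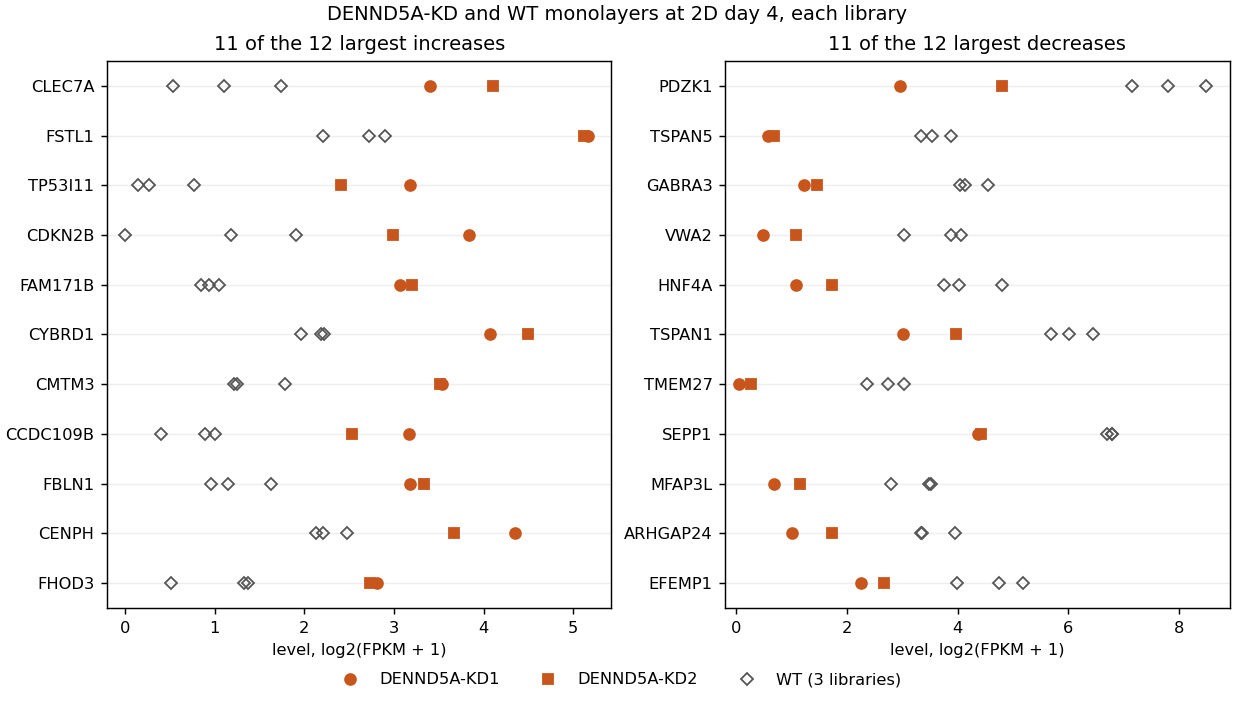
Level of 11 of the 12 genes with a symbol and the largest increase (left) and 11 of the 12 with the largest decrease (right) in each library, as log2(FPKM + 1) on the horizontal axis. Filled circles and squares are DENND5A-KD lines 1 and 2 and open diamonds the 3 WT libraries, and in all 22 genes the lines and WT do not overlap, which the choice of the genes required.

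Genes of mitosis were higher in DENND5A-KD, with 17 of the 18 tested called (background 5.67%) and a median log2 difference of 1.31, beside -0.03 over all genes tested. The kinase PLK1, which drives entry into and passage through mitosis, read 21.6 and 13.5 FPKM in lines 1 and 2, against 7.41, 5.92 and 4.17 FPKM in the WT libraries (1.44 ± 0.22, adjusted p = 0.000177). The checkpoint kinase BUB1 read 24.4 and 14.6 FPKM, against 6.45, 6.04 and 4.01 FPKM in WT (1.64 ± 0.28, adjusted p = 0.000481). The spindle motor KIF11 read 15.2 and 9.83 FPKM, against 6.02, 4.50 and 3.80 FPKM in WT (1.22 ± 0.20, adjusted p = 0.000329). Line 1 was above line 2 and line 2 above every WT library in each of these, and the lines lay above all WT libraries in all 18 genes. CDC20, the activator of the anaphase-promoting complex, and the kinase TTK rose by 1.19 ± 0.18 and 1.16 ± 0.18 (adjusted p = 0.00019 and 0.000203). AURKB, the member that did not pass, read 11.6 and 7.86 FPKM in the lines, against 7.51, 7.20 and 6.07 FPKM in WT (0.42 ± 0.20, adjusted p = 0.198).

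The median difference from WT was 1.65 in line 1 and 0.98 in line 2, and line 1 was the higher line in 18 of 18 mitosis genes. As the mean log2(FPKM + 1) over the list, the lines stood at 4.13 and 3.49 at 2D-D4, against 2.82, 2.57 and 2.22 in WT. At D0 they stood at 4.88 and 4.84, against 4.67 to 4.98 in WT, and by 2D-D7 at 2.66 and 2.96. Tested by limma between 2D-D7 and 2D-D4 in DENND5A-KD, 8 of all 10949 genes were called, 3 higher and 5 lower at 2D-D7. WT monolayers at 2D-D11 stood at 3.61, 3.66 and 3.20, near line 2 at 2D-D4 and above WT at 2D-D4. So the DENND5A-KD level at day 4 lay between that of cells at seeding and that of WT monolayers of the same day. Without line 1 the call was left to 7 of the 18 genes.

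DNA replication genes followed, with 15 of 19 called higher (background 5.67%) and a median log2 difference of 0.70. MCM5, a subunit of the replicative helicase, read 18.4 and 17.9 FPKM in the lines, against 7.79, 6.08 and 4.06 FPKM in WT (1.49 ± 0.17, adjusted p = 6.05e-06). UHRF1, which brings maintenance methylation to newly made DNA, read 14.6 and 12.9 FPKM, against 5.36, 5.61 and 4.11 FPKM in WT (1.30 ± 0.14, adjusted p = 4.35e-06). CDT1, which loads the helicase at origins, read 11.6 and 10.8 FPKM, against 3.85, 5.98 and 3.42 FPKM in WT (1.20 ± 0.16, adjusted p = 6.43e-05). Over the list, the median difference from WT was 0.81 in line 1 and 0.64 in line 2, and in these 3 genes the lines were close to each other. MCM2 rose by 1.12 ± 0.17 (adjusted p = 0.000127), and in all 19 genes both lines lay above all WT libraries. Fewer were called without line 1 (8 genes) or without WT replicate 3 (9 genes), and 7 passed when the 2 groups were fitted alone.

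Regulators of the G1 phase rose alongside, with 4 of the 9 tested CDK inhibitors and cyclins called higher (background 5.67%, median 0.59). They were inhibitors as well as drivers of the cycle. CCND2, the cyclin D2 that activates CDK4 and CDK6, read 34.5 and 42.1 FPKM in the lines, against 15.9, 24.2 and 14.4 FPKM in WT (1.06 ± 0.27, adjusted p = 0.0129). The inhibitor CDKN2C (p18) read 5.24 and 3.99 FPKM, against 2.76, 1.95 and 2.06 FPKM in WT (0.78 ± 0.15, adjusted p = 0.00122). CCNE2 rose by 0.79 ± 0.21 (adjusted p = 0.0133), and CDKN2B is given above. Without line 1, CDKN2B, CDKN2C, CCND2 and CCNE2 did not pass (adjusted p from 0.0644 to 0.125), and without line 2, CCND2 and CCNE2 did not (adjusted p from 0.102 to 0.103). CCND2 and CCNE2 did not pass without WT replicate 3 (adjusted p from 0.053 to 0.0607). No p53 target of the 15 tested was called by limma, and none passed an unadjusted p of 0.05, which 2627 of all 10949 genes did.

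**Figure D2:**
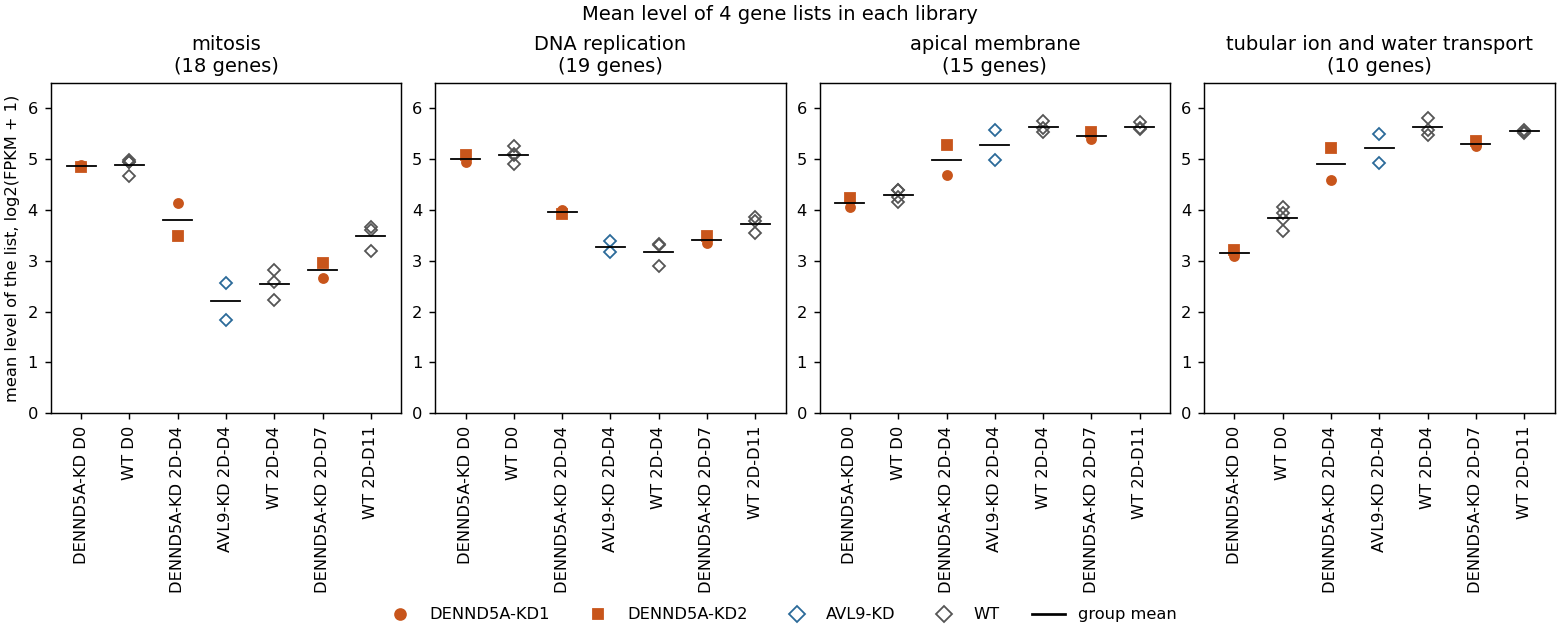
Mean log2(FPKM + 1) over the tested members of 4 gene lists in each library, by group. Mitosis genes stood at 4.13 and 3.49 in DENND5A-KD and at 2.22 to 2.82 in WT at 2D-D4, and apical membrane genes at 4.68 and 5.28 in DENND5A-KD and at 5.54 to 5.76 in WT, with horizontal bars for group means.

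Of 15 apical membrane genes tested, 4 were lower (background 6.19%) and 1 was higher (5.67%), with a median log2 difference of -0.28. CDH16, the kidney cadherin, which the list holds although it lies in the basolateral membrane, read 6.09 and 28.2 FPKM in lines 1 and 2, against 66.1, 39.6 and 49.6 FPKM in the WT libraries (-1.84 ± 0.38, adjusted p = 0.00239). USH1C, the harmonin that links the tips of microvilli, read 4.83 and 12.9 FPKM, against 32.8, 29.7 and 29.8 FPKM in WT (-1.82 ± 0.39, adjusted p = 0.00372). The fourth besides PDZK1 was EZR, the ezrin that anchors microvilli to actin, with 176 and 235 FPKM, against 316, 309 and 302 FPKM in WT (-0.60 ± 0.16, adjusted p = 0.0147). Both lines were under WT in each, with line 1 much further down in CDH16 and USH1C. The peptidase DPP4 went the other way, with 1.07 and 1.46 FPKM in the lines and 0.282, 0.215 and 0.0580 FPKM in WT (0.93 ± 0.23, adjusted p = 0.00884). None of the 4 lower genes passed without line 1, and 2D-D7 levels were 59.7 and 68.6 FPKM for CDH16 and 14.0 and 15.7 FPKM for USH1C in the lines. Without line 1, PDZK1, CDH16 and USH1C did not pass (adjusted p from 0.175 to 0.188), and without line 2, DPP4 did not (adjusted p = 0.0802).

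Tubular ion and water transport genes had the lowest median of the lists with at least 10 members tested, -0.63, with 4 of 10 called lower (background 6.19%). CFTR, the apical chloride channel, read 0.130 and 0.438 FPKM in the lines, against 7.11, 2.40 and 3.88 FPKM in WT (-2.01 ± 0.27, adjusted p = 5.32e-05). CA2, the cytosolic carbonic anhydrase, read 374 and 632 FPKM, against 1037, 901 and 866 FPKM in WT (-0.94 ± 0.26, adjusted p = 0.0225). The potassium channel KCNJ16 read 5.88 and 9.97 FPKM, against 17.1, 19.5 and 14.8 FPKM in WT (-1.05 ± 0.30, adjusted p = 0.0266). Line 1 was the lower line in all 3, and in CFTR both lines were under 1 FPKM. ATP6V1B1, a proton pump subunit of intercalated cells, differed by -0.80 ± 0.21 (adjusted p = 0.0132). FXYD2, the gamma subunit of the sodium pump, read 14.4 and 51.1 FPKM, against 115, 86.9 and 97.1 FPKM in WT, and did not pass (-1.82 ± 0.62, adjusted p = 0.0612). The organic cation transporter SLC22A2 and the export pump ABCC2 fell by 1.40 and 1.25 on the log2 scale, and ABCC4, a related pump, rose by 0.72, out of 7 organic solute transporters. Without line 1, ABCC2, ATP6V1B1, CA2, KCNJ16 and SLC22A2 did not pass (adjusted p from 0.284 to 0.502), and without line 2, ABCC4 did not (adjusted p = 0.0854). ATP6V1B1, CA2 and KCNJ16 did not pass without WT replicate 1 (adjusted p from 0.0627 to 0.0764), and KCNJ16 did not without WT replicate 2 (adjusted p = 0.0782). KCNJ16 and SLC22A2 did not pass with a pseudocount of 0.1 (adjusted p from 0.0736 to 0.394). Of the 10 transport genes, 1 passed without line 1 and 1 without WT replicate 1.

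Transcription factors of the kidney epithelium were lowered in 5 of 22 cases (background 6.19%) and raised in 1, with a median of -0.14. HNF4A, a nuclear receptor that drives proximal tubule, liver and gut genes, read 1.12 and 2.32 FPKM in lines 1 and 2, against 26.8, 12.6 and 15.3 FPKM in the WT libraries (-2.79 ± 0.50, adjusted p = 0.000861). It was far below WT in both lines and stood at 2.74 and 3.97 FPKM in the lines at 2D-D7. The other changes were small. PAX8, which helps specify the nephron, differed by -0.52 ± 0.16 (adjusted p = 0.0391), and IRX3 and EHF by -0.78 ± 0.21 and -0.50 ± 0.14 (adjusted p = 0.0192 and 0.0262). HOXD8 rose by 0.67 ± 0.14 (adjusted p = 0.00345). HNF4A alone of the 5 passed without line 1, and HNF4A alone without WT replicate 1. Without line 1, IRX3, EHF and PAX8 did not pass (adjusted p from 0.328 to 0.524), and without WT replicate 1, IRX3, EHF and PAX8 did not (adjusted p from 0.0803 to 0.114). PAX8 did not pass without WT replicate 2 (adjusted p = 0.0778), and PAX8 did not without WT replicate 3 (adjusted p = 0.076).

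Of 23 primary cilium genes, 3 were lower (background 6.19%), with a median of -0.22. IFT88, a core subunit of the transport particles that build cilia, read 1.41 and 2.00 FPKM in the lines, against 3.99, 4.94 and 4.24 FPKM in WT (-1.0 ± 0.19, adjusted p = 0.00144). PKHD1, the fibrocystin gene of human recessive polycystic kidney disease, and IFT122 fell by 0.94 and 0.56 on the log2 scale (adjusted p = 0.00455 and 0.00718). Without line 1, IFT88, PKHD1 and IFT122 did not pass (adjusted p from 0.0584 to 0.285).

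Lysosome genes were lower in 5 of 21 cases (background 6.19%), with a median of -0.32. PSAP, the precursor of the saposins that help degrade sphingolipids, read 106 and 126 FPKM in lines 1 and 2, against 329.7, 338 and 301 FPKM in the WT libraries (-1.47 ± 0.12, adjusted p = 6.71e-08). CTSB, the protease cathepsin B, read 73.2 and 86.1 FPKM, against 199, 199 and 157 FPKM in WT (-1.20 ± 0.24, adjusted p = 0.00174). LAMP2, a main protein of the lysosomal membrane, read 52.3 and 69.6 FPKM, against 114, 104 and 92.0 FPKM in WT (-0.76 ± 0.15, adjusted p = 0.00185). PSAP was lower at D0 too, with 93.1 and 104 FPKM in the lines, against 188, 227, 196 and 184 FPKM in WT (-1.0 ± 0.11, adjusted p = 4.86e-06). LAMP1 and CTSA differed by -0.46 ± 0.15 and -0.40 ± 0.13 (adjusted p = 0.0424 and 0.049). CTSK, a cathepsin known from osteoclasts and not in the list, was higher, with 44.4 and 40.3 FPKM in the lines and 13.8, 16.1 and 11.3 FPKM in WT (1.57 ± 0.38, adjusted p = 0.0082). PSAP alone passed without line 1, 9 of the 21 genes passed without line 2, and 3 without WT replicate 1 or WT replicate 2. Without line 1, CTSB, LAMP2 and LAMP1 did not pass (adjusted p from 0.0501 to 0.616), and without WT replicate 1, LAMP1 did not (adjusted p = 0.177). LAMP1 did not pass without WT replicate 2 (adjusted p = 0.0732).

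**Figure D3:**
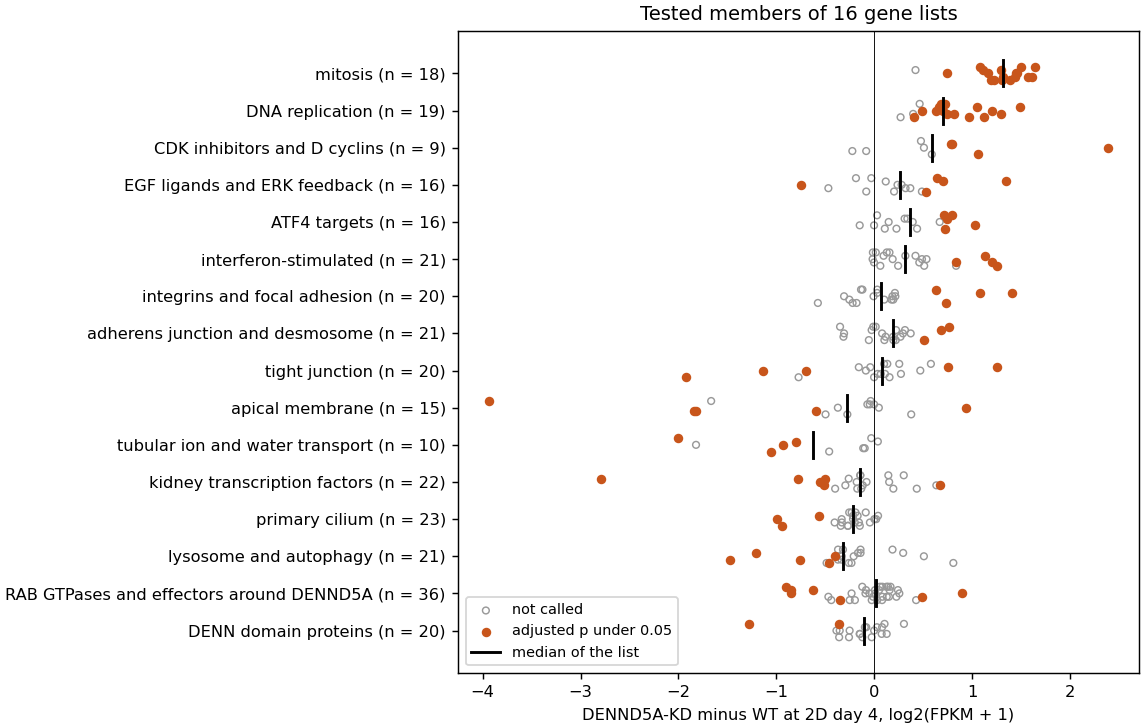
Log2 difference, DENND5A-KD minus WT at 2D-D4, of the tested members of 16 gene lists. Filled points have an adjusted p under 0.05, open points do not, and black bars are list medians, at 1.31 for mitosis and 0.70 for DNA replication at the top and at -0.63 for tubular transport and -0.32 for lysosome genes further down.

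Among 20 DENN domain genes tested, DENND5A and DENND2D were called lower (background 6.19%), and the other 18 differed by between -0.39 and 0.30 on the log2 scale. DENND2D read 5.84 and 6.44 FPKM in the lines, against 8.87, 7.60 and 8.08 FPKM in WT (-0.36 ± 0.11, adjusted p = 0.0397). Of 36 RAB GTPases and partners, 5 were lower and 2 higher, with a median of 0.02. RAB3D, a RAB of regulated secretion, read 23.4 and 24.7 FPKM, against 46.2, 46.1 and 40.5 FPKM in WT (-0.85 ± 0.16, adjusted p = 0.00127). RAB17, an epithelial RAB of transcytosis in mouse, read 2.26 and 5.28 FPKM, against 8.13, 7.46 and 6.88 FPKM in WT (-0.91 ± 0.24, adjusted p = 0.0166). RAB17 was lower in line 1 than in line 2, and RAB3D was close to equal in the lines. SNX2, a sorting nexin of the retromer, and SYTL2, a RAB27 effector, fell by 0.63 and 0.86 (adjusted p = 0.00156 and 0.0225), and RAB11FIP2 by 0.35 (adjusted p = 0.0355). RAB31, of the trans-Golgi, and the motor MYO5A rose by 0.90 and 0.49 (adjusted p = 0.0115 and 0.0406). Of the RABs tied to DENND5A, RAB39A read 5.72 and 6.11 FPKM in the lines, against 6.5, 7.26 and 5.36 FPKM in WT (adjusted p = 0.813), and RAB39B and RAB6B differed by 0.14 ± 0.21 and 0.43 ± 0.18 (adjusted p = 0.745 and 0.135). RAB6A was not found under its own symbol and was not tested. Without line 1, DENND2D, RAB31 and RAB17 did not pass (adjusted p from 0.107 to 0.514), and without line 2, DENND2D and RAB31 did not (adjusted p from 0.0573 to 0.0656). DENND2D and RAB17 did not pass without WT replicate 1 (adjusted p from 0.0571 to 0.143), and DENND2D and RAB31 did not without WT replicate 3 (adjusted p from 0.053 to 0.0641). RAB17 did not pass with a pseudocount of 0.1 (adjusted p = 0.0566). Of the lower genes of the RAB list, RAB3D and SNX2 alone passed without line 1, and the same held without WT replicate 1. SYTL2 and RAB11FIP2 thus did not pass in either case.

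Junction genes moved in both directions. Of 20 tight junction genes, 3 were lower (background 6.19%) and 2 higher (5.67%), with a median of 0.08. The related cytoplasmic plaque proteins cingulin and paracingulin were opposed: CGN read 21.6 and 25.0 FPKM in lines 1 and 2, against 43.6, 39.1 and 33.3 FPKM in the WT libraries (-0.70 ± 0.13, adjusted p = 0.000974), and CGNL1 read 2.35 and 1.96 FPKM, against 0.205, 0.267 and 0.523 FPKM in WT (1.25 ± 0.22, adjusted p = 0.000682). The claudins set which ions pass between cells. CLDN16, a cation channel of the thick ascending limb, read 7.26 and 13.5 FPKM, against 28.2, 27.4 and 15.8 FPKM in WT (-1.14 ± 0.29, adjusted p = 0.0131), while CLDN10 fell by 1.92 from a low level and CLDN6 rose by 0.75. The tested values of OCLN and TJP1, occludin and ZO-1, were -0.04 ± 0.12 and -0.00 ± 0.13 (adjusted p = 0.879 and 0.994). Of 21 adherens junction and desmosome genes, 3 rose, the desmosomal plaque gene DSP by 0.69, the plakophilin relative PKP4 by 0.76 and DSC3 by 0.51. CDH1, the E-cadherin, read 166 and 215 FPKM in the lines, against 184, 182 and 134 FPKM in WT, and did not pass (0.19 ± 0.17, adjusted p = 0.551). Of 13 polarity complex genes PRKCI, an atypical protein kinase C, and INADL, the PATJ scaffold, fell by 0.39 and 0.52. Without line 1, CLDN10, CLDN16, PRKCI, INADL, PKP4, DSP and DSC3 did not pass (adjusted p from 0.104 to 0.549), and without line 2, PRKCI, PKP4, DSP and DSC3 did not (adjusted p from 0.0516 to 0.209). CLDN10, CLDN16, PRKCI, INADL and DSC3 did not pass without WT replicate 1 (adjusted p from 0.0594 to 0.119), and PRKCI and INADL did not without WT replicate 2 (adjusted p from 0.0524 to 0.075). PRKCI, DSP and DSC3 did not pass without WT replicate 3 (adjusted p from 0.0523 to 0.108).

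Adhesion and cytoskeleton genes that passed were higher. Of 20 integrin and focal adhesion genes, 4 rose (background 5.67%), with a median of 0.07. ITGB6, the partner of alpha V in an epithelial integrin that activates TGF-beta, read 55.8 and 84.2 FPKM in the lines, against 29, 36.0 and 31.5 FPKM in WT (1.08 ± 0.16, adjusted p = 0.000194). ITGAV read 48.5 and 54.9 FPKM, against 31.2, 32.5 and 28.2 FPKM in WT (0.74 ± 0.15, adjusted p = 0.00258). Both subunits of this receptor were thus above WT in both lines. ITGA5 of the fibronectin receptor stayed under 2 FPKM, with 1.88 and 1.82 in the lines and 0.0350, 0.0725 and 0.126 in WT (1.40 ± 0.11, adjusted p = 6.71e-08), and ITGA6 rose by 0.63. VIM, the intermediate filament vimentin, read 727 and 737 FPKM, against 359, 428 and 286 FPKM in WT (1.05 ± 0.21, adjusted p = 0.00222), and KRT19 rose by 0.83. At D0, before inserts, VIM read 1690 and 2091 FPKM in the lines, against 1702, 1682, 1643 and 1333 FPKM in WT. Of 16 actin genes 3 rose, the myosin light chain MYL9 by 1.13, filamin FLNA by 0.64 and TAGLN2 by 0.39. Fibroblast collagens were at 0 in both lines, as given above. Without line 1, ITGA6 and TAGLN2 did not pass (adjusted p from 0.214 to 0.222), and without line 2, ITGA6, MYL9, FLNA, TAGLN2 and KRT19 did not (adjusted p from 0.0564 to 0.116). TAGLN2 did not pass without WT replicate 1 (adjusted p = 0.0725), and ITGA6 and TAGLN2 did not without WT replicate 3 (adjusted p from 0.0994 to 0.128). MYL9 did not pass with a pseudocount of 0.1 (adjusted p = 0.053).

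Targets of the ERK pathway were partly raised, with 4 of 16 genes of EGF ligands and ERK feedback higher (background 5.67%) and ERBB3 lower. ETV4, a factor induced by ERK, read 8.93 and 8.76 FPKM in the lines, against 2.79, 4.04 and 2.05 FPKM in WT (1.34 ± 0.20, adjusted p = 0.000185). DUSP6, the phosphatase that dampens ERK, read 13.8 and 18.2 FPKM, against 10.2, 10.4 and 7.66 FPKM in WT (0.70 ± 0.17, adjusted p = 0.0081). ERBB3, a receptor for neuregulins, read 53.2 and 54.0 FPKM, against 89.9, 98.2 and 84.9 FPKM in WT (-0.75 ± 0.20, adjusted p = 0.0161). ETV4 and ERBB3 were alike in both lines and DUSP6 was higher in line 2. ETV5 rose by 0.64. Interferon-stimulated genes were higher in 4 of 21 cases, with a median of 0.32: the RNA sensor IFIH1 read 11.7 and 11.7 FPKM, against 5.51, 4.69 and 4.23 FPKM in WT (1.13 ± 0.11, adjusted p = 2.44e-06), and IFIT2, IFIT1 and CMPK2 rose by 1.20, 1.25 and 0.84. At D0, 10 of these 21 were higher in DENND5A-KD (2.99% of all genes tested were). Without line 1, ERBB3 and CMPK2 did not pass (adjusted p from 0.105 to 0.145), and without line 2, ETV5, DUSP6, ERBB3 and CMPK2 did not (adjusted p from 0.0654 to 0.125). ERBB3 did not pass without WT replicate 2 (adjusted p = 0.0524), and CMPK2 did not without WT replicate 3 (adjusted p = 0.0679). CMPK2 did not pass with a pseudocount of 0.1 (adjusted p = 0.249).

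Genes of amino acid supply under ATF4 gave 5 higher of 16 (background 5.67%) and a median of 0.36. SLC7A5, a carrier of large neutral amino acids, read 65.6 and 56.8 FPKM in the lines, against 32.6, 43.9 and 29.4 FPKM in WT (0.79 ± 0.19, adjusted p = 0.00664), and TRIB3 read 7.13 and 5.4 FPKM, against 2.44, 4.45 and 1.35 FPKM in WT (1.03 ± 0.32, adjusted p = 0.0388). SHMT2 and MTHFD2, of mitochondrial folate metabolism, and PSAT1, of serine synthesis, rose by 0.73, 0.74 and 0.71. This count was 0 without line 1, 2 without line 2, 2 without WT replicate 1 and 1 without WT replicate 3. Without line 1, SLC7A5, SHMT2, MTHFD2 and PSAT1 did not pass (adjusted p from 0.0626 to 0.37), and without line 2, SHMT2 and MTHFD2 did not (adjusted p from 0.0818 to 0.121). MTHFD2 and PSAT1 did not pass without WT replicate 1 (adjusted p from 0.0832 to 0.131), and SHMT2, MTHFD2 and PSAT1 did not without WT replicate 3 (adjusted p from 0.0707 to 0.113). Members of 5 further lists gave no call by limma in either direction, with unadjusted p under 0.05 for 5 of 19 cholesterol synthesis genes, 2 of 14 unfolded protein response genes, 1 of 8 heat shock genes, 0 of 12 oxidative phosphorylation genes and 0 of 11 cytosolic ribosomal protein genes. Over all genes tested, 2627 of 10949 had an unadjusted p under 0.05, so the cholesterol synthesis count is near that share.

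The lines moved in the same direction at nearly every called gene, which a call on their mean favours, but not by the same amount. Among the 678 lower genes the median difference from WT was -0.87 in line 1 and -0.52 in line 2, and line 1 was further from WT in 638 of them (94.1%). Among the 621 higher genes the medians were 0.81 and 0.78, and line 1 was further in 351 (56.5%). Over all genes tested the medians were -0.11 and 0.05, so line 1 was shifted down as a whole. After median-ratio scaling, which set those medians to 0.00 and 0.00, line 1 was further in 475 higher genes (76.5%, medians 0.92 and 0.73) and in 529 lower genes (78%, medians -0.77 and -0.57). CDH16 showed a wide gap, with differences from WT of -2.87 in line 1 and -0.82 in line 2, and the glucose carrier SLC2A1 the opposite, with 0.36 and 1.27. FSTL1 and TSPAN5 showed a narrow one, with 2.56 and 2.51, and -3.02 and -2.91.

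With 1 library per line and day, a difference between the lines was tested over D0, 2D-D4 and 2D-D7 together, with line as a term. Such a term averages over the days, so it does not test a gap confined to 2D-D4 or one that reverses between days. Of 10949 genes 1 was called (0.00913%), ENSCAFG00000032430, which has no symbol in the files and read 1.22 and 4.40 FPKM in lines 1 and 2 at 2D-D4, against 0, 0.18 and 0.0421 FPKM in WT. An unadjusted p under 0.05 was reached by 492 genes. The call did not hold when any DENND5A-KD library was left out, where the count was 0.

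**Figure D4:**
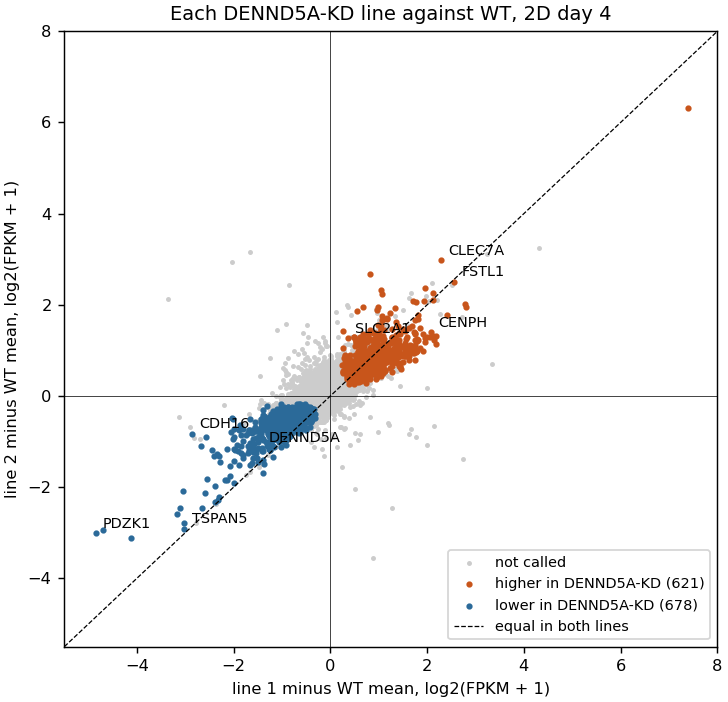
Difference of line 1 (horizontal) and of line 2 (vertical) from the mean of the 3 WT libraries at 2D-D4, in log2(FPKM + 1), for all 10949 genes. Genes called higher (621) and lower (678) in DENND5A-KD are coloured, and among the lower ones most points lie above the dashed line of equality, as line 1 was further from WT in 638 of them.

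Part of the change was in place before the cells were put on inserts. At D0, 327 genes were higher (2.99%) and 255 lower (2.33%) in DENND5A-KD than in WT. Of the 621 genes higher at 2D-D4, 175 were also higher at D0, which is 28.2% of the 621 and 53.5% of the 327. Of the 678 lower genes, 118 were also lower at D0, 17.4% of the 678 and 46.3% of the 255. The group means of these 2 comparisons share no library, but both tests use the spread estimated over all 29 libraries, so the calls are not independent. Each WT group also holds a library that stands apart, and without the 5 such libraries the shared genes were 153 of 604 and 79 of 396. FSTL1 read 48.9 and 51.2 FPKM in the lines at D0, against 7.26, 13.4, 9.13 and 16.8 FPKM in WT, and FAM171B read 6.40 and 7.60 FPKM, against 0.687, 0.987, 0.637 and 0.864 FPKM in WT. CYBRD1 read 12.8 and 15.5 FPKM, against 1.25, 2.18, 1.03 and 1.69 FPKM in WT. At D0 the differences were 2.08 ± 0.27, 2.16 ± 0.14 and 2.59 ± 0.38, and no change of effect between D0 and 2D-D4 was called for them (adjusted p = 0.718, 0.983 and 0.838).

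A difference of effect between 2D-D4 and D0 was called at 235 genes, 149 with a more positive effect at 2D-D4 (1.36%) and 86 with a more negative one (0.785%). Mitosis genes gave 14 of 18 and DNA replication genes 9 of 19 among the more positive, while at D0 none of either list was called different by limma and their median differences were -0.03 and -0.11. For MCM5 the values at D0 were 42.8 and 44.9 FPKM in the lines, against 48.1, 48.2, 45.1 and 37.9 FPKM in WT, and the change of effect was 1.52 ± 0.23 (adjusted p = 0.00191). CHAF1A, of the complex that assembles chromatin on new DNA, changed by 1.06 ± 0.16 (adjusted p = 0.00191). CLEC7A read 0.512 and 1.04 FPKM in the lines at D0, against 0.716, 2.37, 1.41 and 1.89 FPKM in WT, a change of 3.15 ± 0.44 (adjusted p = 0.00171). Its rise was thus seen at 2D-D4 and not before.

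FOS and FOSB, parts of the AP-1 factor that growth signals induce quickly, differed in their effect between the days. FOS read 35 and 48.3 FPKM in the lines at D0, against 140.5, 127, 155 and 179.5 FPKM in WT, and 39.2 and 29.5 FPKM in the lines at 2D-D4, against 21.7, 23.1 and 17.5 FPKM in WT. FOSB read 2.62 and 4.85 FPKM at D0, against 21.6, 15.1, 42.4 and 36.5 FPKM in WT, and 1.15 and 1.41 FPKM at 2D-D4, against 0.734, 1.08 and 0.721 FPKM in WT. Both were far below WT at D0, and at 2D-D4 FOS was above WT (0.70 ± 0.20, adjusted p = 0.0291), with changes of effect of 2.53 ± 0.28 and 2.90 ± 0.40 (adjusted p = 0.000162 and 0.00171). EPAS1, the hypoxia factor HIF-2 alpha, read 4.58 and 5.75 FPKM in the lines at D0, against 0.0328, 0.152, 0.0540 and 0.0588 FPKM in WT. At 2D-D4 it read 1.02 and 1.42 FPKM in the lines, against 0.0342, 0.0476 and 0.0186 FPKM in WT, so it was above WT at both days. EPAS1 lost its change of effect with a pseudocount of 0.1 (adjusted p = 0.132), while with the pseudocount of 1 it was called (-1.42 ± 0.21, adjusted p = 0.00188). ECE1, the endothelin-converting enzyme, read 40.2 and 43.3 FPKM at D0, against 16.2, 20.9, 18.6 and 16.1 FPKM in WT, and 11.8 and 15.8 FPKM at 2D-D4, against 17.6, 15.4 and 12.8 FPKM in WT (-1.32 ± 0.22, adjusted p = 0.00346). The small GTPase RASL11A, TMEM27 and the dehydrogenase DHDH had more negative effects at 2D-D4 by 2.17, 2.56 and 1.46 in size. The count of 235 was 45 without line 1 at 2D-D4, 430 without line 2 at 2D-D4, and 70 and 56 without line 1 or line 2 at D0. Without WT replicate 3 at D0 it was 130, and without WT replicate 3 at 2D-D4 it was 135. The difference of FOS from WT at 2D-D4, as opposed to its change of effect, was 0.50 without line 1. That difference did not pass by limma without WT replicate 1 (adjusted p = 0.0528) or without WT replicate 3 (adjusted p = 0.0981) of 2D-D4.

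**Figure D5:**
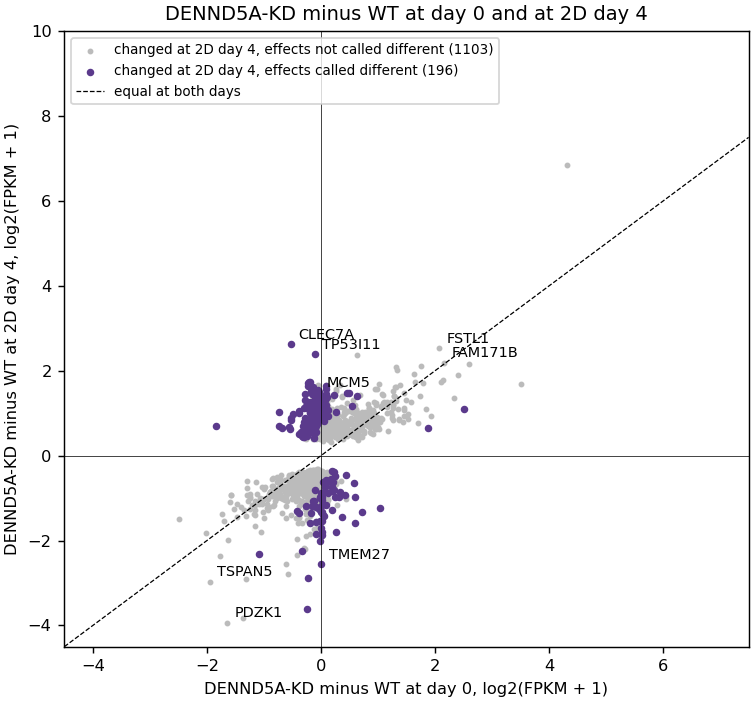
Difference between DENND5A-KD and WT at D0 (horizontal) and at 2D-D4 (vertical), in log2(FPKM + 1), for the 1299 genes called at 2D-D4. The 196 genes in purple also had an effect called different between the days, and many of them, such as MCM5 and TMEM27, lie near 0 on the D0 axis, while FSTL1 and FAM171B lie near the dashed line of equal effects.

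The genes called at 2D-D4 were set beside the change of WT cells from D0 to 2D-D11, whose group means come from other libraries. Both sets of calls use the spread estimated over all 29 libraries, so they are not independent. In WT at 2D-D11, 3701 genes were higher (33.8%) and 2706 lower (24.7%) than in WT at D0. Of the 678 genes lower in DENND5A-KD at 2D-D4, 555 were among the 3701 (81.9% of the 678 and 15% of the 3701) and 18 among the 2706. Of the 621 genes higher in DENND5A-KD, 379 were among the 2706 (61% of the 621 and 14% of the 2706) and 73 among the 3701. Without the 5 libraries that stand apart the corresponding shares were 85.1% of 396 and 62.1% of 604. HNF4A read 7.48, 6.89 and 13.4 FPKM in WT at 2D-D11, against 0.300, 0.735, 0.539 and 0.853 FPKM in WT at D0, and PDZK1 read 129, 142 and 189 FPKM, against 0.811, 3.98, 0.997 and 4.89 FPKM. MCM5 read 13.2, 12.1 and 10.1 FPKM in WT at 2D-D11, against 48.1, 48.2, 45.1 and 37.9 FPKM in WT at D0. In DENND5A-KD at 2D-D7 PDZK1 read 26.1 and 42.9 FPKM and MCM5 9.25 and 9.68 FPKM.

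DENND5A-KD and AVL9-KD monolayers of the same day were set against each other directly. Genes were higher in DENND5A-KD in 380 cases (3.47%) and lower in 2211 (20.2%), with a median of -0.24 over all genes. The direction of this balance depended on scaling: higher genes made up 14.7% of the calls on the deposited values, 60% after median-ratio scaling and 50.1% after quantile normalization. Mitosis genes were above AVL9-KD in 18 of 18 cases and DNA replication genes in 12 of 19, while 12 of 16 ATF4 targets were below it. Against WT, the AVL9-KD median was -0.36 for mitosis, 0.12 for DNA replication and 1.18 for ATF4 targets. In DENND5A-KD the medians were 1.31, 0.70 and 0.36, so that of ATF4 targets was above WT in both knockdowns. BUB1 read 24.4 and 14.6 FPKM in DENND5A-KD, against 5.54 and 1.75 FPKM in AVL9-KD (2.23 ± 0.30, adjusted p = 8.21e-05). CTSK read 44.4 and 40.3 FPKM, against 8.95 and 5.16 FPKM in AVL9-KD (2.47 ± 0.41, adjusted p = 0.000511). PTGS2, the inducible cyclooxygenase, read 3.29 and 11.2 FPKM in DENND5A-KD, against 98.2 and 72.7 FPKM in AVL9-KD (-3.56 ± 0.40, adjusted p = 1.69e-05) and 15.2, 27.3 and 10.5 FPKM in WT. PTGS2 was thus highest in AVL9-KD and lowest in line 1. TP53I11, MAD2L1 and CKAP2L were higher than in AVL9-KD by 2.26, 2.15 and 2.13 on the log2 scale, and CLDN16, LGALS2, VWA2 and SERPINF2 differed by -2.37, -2.0, -1.86 and -1.83. The AVL9-KD libraries were far apart in some genes, such as PDZK1 at 1.46 and 94.3 FPKM and HNF4A at 0.996 and 13.1 FPKM. The count of 2591 was 326 without DENND5A-KD line 1, 1543 without AVL9-KD replicate 4, and 0 when the 2 groups were fitted alone, where the spread rests on 4 libraries. Without line 1, VWA2 and SERPINF2 did not pass (adjusted p from 0.0633 to 0.419), and without AVL9-KD replicate 4, SERPINF2 did not (adjusted p = 0.648). SERPINF2 was at -0.34 without AVL9-KD replicate 4, and it did not pass after quantile normalization, after median-ratio scaling or without the filter (adjusted p = 0.0518, 0.0714 and 0.0513).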

How the data were processed

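RNA of MDCKII cells was sequenced after library preparation with a stranded mRNA kit (KAPA), per the labels' protocols. The authors deposited FPKM per gene and library, and the submitters' processing notes name CanFam3.1 and canFam3 as builds, with Cufflinks 2.2.1 and HISAT2 2.1.0 as tools. No counts were used, so the depth behind a value is unknown apart from the relative depth read from the steps between low values, and no counting interval is given. An exact 0 in FPKM can be a failed estimate: of the 5141 genes that averaged 10 FPKM or more, 27 had a 0 in some of the 5 libraries. Genes that overlap or have near-identical copies may share reads.

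Values were tested as log2(FPKM + 1) with limma 3.58.1 in R 4.3.3 (eBayes with a trend), with 1 mean for each of 13 groups over all 29 libraries, so that the groups share an estimate of the spread. P-values were adjusted by Benjamini-Hochberg over the 10949 genes tested, with a threshold of 0.05. The tests were two-sided. Figures were drawn with matplotlib 3.10.9, and tables were made with scipy 1.17.1, numpy 2.4.6 and pandas 2.3.3 under Python 3.11.15.

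The comparison and the 41 gene lists (829 different symbols, 579 of them tested, 172 below the filter and 78 not matched by symbol) were chosen with earlier results of these data known. Genes with a symbol of their own were named as the 12 largest differences in each direction without overlap where the higher group averaged 5 FPKM or more, up to 4 of each list by adjusted p, the 5 smallest adjusted p in each direction for a changed effect, and the 5 largest differences from AVL9-KD in each direction among genes called against WT. DENND5A, AVL9 and the RAB and DENN genes were always included. AURKB, FXYD2, EZR, CTSA, TRIB3, CLDN6, OCLN, TJP1 and CDH1 were named outside this rule after their values were seen, as were the genes without a symbol. Some genes that the rule gives are not reported here. Other scalings, pseudocounts, filters and fits were tried, and leaving out the 5 libraries and scaling the line values were added after seeing the data.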

Additional observations from a re-analysis of the deposited data

Results flagged for a closer look

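The effect of DENND5A-KD differed between 2D-D4 and D0 by limma's test of the difference itself, given as the log2 effect at 2D-D4 minus that at D0. Among the positive ones, the 5 with the smallest adjusted p were FOS at 2.53 ± 0.28 (adjusted p = 0.000162), CLEC7A at 3.15 ± 0.44 (adjusted p = 0.00171), FOSB at 2.90 ± 0.40 (adjusted p = 0.00171), MCM5 at 1.52 ± 0.23 (adjusted p = 0.00191) and CHAF1A at 1.06 ± 0.16 (adjusted p = 0.00191). Among the negative ones, the 5 with the smallest adjusted p were RASL11A at -2.17 ± 0.31 (adjusted p = 0.00171), TMEM27 at -2.56 ± 0.37 (adjusted p = 0.00173), DHDH at -1.46 ± 0.21 (adjusted p = 0.00173), EPAS1 at -1.42 ± 0.21 (adjusted p = 0.00188) and ECE1 at -1.32 ± 0.22 (adjusted p = 0.00346). EPAS1 did not pass with a pseudocount of 0.1 (adjusted p = 0.132).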

How the results depend on the processing

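DENND5A stayed lower in DENND5A-KD and past the threshold under every alternative run, at -1.46 to -1.14 on the log2 scale. No gene followed through the alternatives changed sign, although the balance of higher and lower calls did move. Followed were 113 named genes against WT and those named for a changed effect or against AVL9-KD. EZR, CTSA, TRIB3, CLDN6, SYTL2, RAB11FIP2, MYO5A and the genes without a symbol were not followed singly, nor were BUB1 and CTSK against WT. Calls at D0 were not followed either. The count of 1299 genes between DENND5A-KD and WT was 2164 after quantile normalization, 615 when the 5 libraries were fitted alone and 403 to 1221 when 1 library was left out. It was 1764 after median-ratio scaling, 1172 with a pseudocount of 0.1, 1565 without the filter, 1319 with a term for the 5 libraries that stand apart and 1000 without them. Higher genes made up 47.8% of these calls, 75.7% without line 1, 34.1% without line 2, 37.2% without WT replicate 3 and 60.5% without WT replicate 1. The 1 gene differing between the lines gave 0 with a pseudocount of 0.1, after median-ratio scaling, after quantile normalization or in a fit of these groups alone, 0 to 0 when 1 library was left out, 9 without the filter and 2 without the 5 libraries. The 235 genes with a changed effect between the days were 498 after quantile normalization, 475 after median-ratio scaling, 119 in the groups alone and 45 to 430 with 1 library left out. The 2591 genes between DENND5A-KD and AVL9-KD, 14.7% of them higher, were 1476 after median-ratio scaling (60% higher), 0 in the groups alone and 326 to 2705 with 1 library left out. The causes were not tested, apart from the fewer libraries of a fit by construction.

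Of 113 named genes called against WT, 40 passed without each of the 5 libraries in turn. Without line 1, 62 did not pass, without line 2 33, without WT replicate 1 25 and without the 5 libraries 21. In a fit of the compared groups alone 38 did not pass (adjusted p from 0.0506 to 0.402), with a pseudocount of 0.1 10, with a term for the 5 libraries 9 and without the filter 2. After either scaling, 0 of the 113 did. With the replicate number as a block, fitted on the compared groups alone, the counts were 436 genes against WT and 267 with a changed effect. The fit of those groups without a block gave 615 and 119. With the block 52 named genes did not pass, against the 38 without it. Same-numbered libraries deviated from their group means with correlations of -0.0997 and -0.0950, so the numbers are not taken to pair them. No replicate block was fitted between the lines, whose replicate numbers are the line numbers and which were matched by day. None was fitted against AVL9-KD, which shares fewer than 2 numbers with DENND5A-KD. Precision is limited by 2 against 3 libraries, with no counts behind the FPKM.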

Other observations

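Further lists were measured in the same fit, each against the background shares given above. Of 19 TGF-beta and BMP genes, 4 were higher and 1 lower in DENND5A-KD, among them BMP7 (0.84), SMAD7 (0.72), LTBP1 (0.63) and INHBB (0.89), as log2 differences by limma. Without line 1, BMP7, SMAD7 and LTBP1 did not pass (adjusted p from 0.0704 to 0.215), and without line 2, BMP7, SMAD7 and INHBB did not (adjusted p from 0.07 to 0.302). SMAD7 did not pass without WT replicate 1 (adjusted p = 0.0574), and INHBB did not without WT replicate 2 (adjusted p = 0.0534). LTBP1 did not pass without WT replicate 3 (adjusted p = 0.0672). INHBB did not pass with a pseudocount of 0.1 (adjusted p = 0.104). Of 11 Wnt genes 2 were higher and 1 lower: the Wnt-inactivating enzyme NOTUM read 11.9 and 13.1 FPKM in the lines, against 3.87, 4.15 and 3.68 FPKM in WT (1.46 ± 0.16, adjusted p = 4.58e-06), beside FZD4 (-1.17) and ZNRF3 (0.60). Without line 1, FZD4 and ZNRF3 did not pass (adjusted p from 0.0636 to 0.14), and without line 2, ZNRF3 did not (adjusted p = 0.308). ZNRF3 did not pass without WT replicate 1 (adjusted p = 0.118), and ZNRF3 did not without WT replicate 3 (adjusted p = 0.0863). ZNRF3 did not pass with a pseudocount of 0.1 (adjusted p = 0.0667). Of 15 YAP targets 1 was higher and 2 lower, namely LATS2 (-0.85), CRIM1 (-0.84) and AMOTL1 (0.52). Without line 1, LATS2, CRIM1 and AMOTL1 did not pass (adjusted p from 0.0818 to 0.441), and without line 2, AMOTL1 did not (adjusted p = 0.141). CRIM1 did not pass without WT replicate 1 (adjusted p = 0.0581), and AMOTL1 did not without WT replicate 3 (adjusted p = 0.11).

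Of 18 neuronal development genes 2 were higher and 3 lower, among them DPYSL3 (1.27), NRP1 (-1.14), SLIT3 (-1.41) and NTN4 (-1.32). Without line 1, NRP1, SLIT3 and NTN4 did not pass (adjusted p from 0.0968 to 0.228). Of 17 NRF2 and AHR targets 1 was higher and 2 lower, namely NQO1 (1.68), TXNIP (-1.04) and ABCC2 (-1.25). NQO1, a quinone reductase, read 193 and 102 FPKM in the lines, against 54.0, 44.6 and 33.8 FPKM in WT (adjusted p = 0.00357). Without line 1, NQO1 and TXNIP did not pass (adjusted p from 0.152 to 0.316). Of 13 glycolysis and hypoxia genes the glucose carrier SLC2A1 and PFKP were higher (0.81 and 0.56). Without line 2, SLC2A1 and PFKP did not pass (adjusted p from 0.415 to 0.417), and without WT replicate 1, PFKP did not (adjusted p = 0.0635). SLC2A1 and PFKP did not pass without WT replicate 3 (adjusted p from 0.107 to 0.125). ELOVL6 alone was called of 10 fatty acid synthesis genes (0.47 ± 0.14, adjusted p = 0.0364). Without line 1, ELOVL6 did not pass (adjusted p = 0.209), and without line 2, ELOVL6 did not (adjusted p = 0.124). ELOVL6 did not pass without WT replicate 2 (adjusted p = 0.132), and ELOVL6 did not without WT replicate 3 (adjusted p = 0.0874).

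ENSCAFG00000028447, which has no symbol in the files, read 167 and 79.1 FPKM in lines 1 and 2 and was listed at 0 in all 3 WT libraries (adjusted p = 0.0462, limma). Its log2 difference of 6.86 was the highest of all genes tested, yet it passed only narrowly. An exact 0 can be a failed estimate, so absence from WT is not shown. The gene was not followed through the alternatives. ENSCAFG00000028447 was chosen after its values were seen.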
